A study of Homo sapiens with 32 samples.

Results

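The 9 genes described here are the early growth response genes EGR1, EGR2 and EGR3, the nuclear receptor genes NR4A1, NR4A2 and NR4A3, and the immediate early response genes IER2, IER3 and IER5. They were chosen by symbol, and each symbol stood on 1 of the 32738 gene entries of the count table. The samples were HEK293 cells, an established human line derived from embryonic kidney, given 4-thiouracil for 0, 5, 15 or 30 min. 4-Thiouracil is a uracil analogue used to label the RNA made during an incubation, and how much of it these cells took up is not given. Each of the 4 times had 2 biological replicates, here called culture 1 and culture 2, and each culture had 2 cDNA preparations sequenced as 2 libraries each, 32 libraries in all. The labels give polyadenylated RNA of the HEK293 line for every sample, and give no treatment other than the incubation. The sample titles begin with TTSeq, a name that the labels do not explain. The labels do not state what the 0 min cells were given or whether RNA carrying the label was isolated. It thus cannot be told apart whether a level is a share of new RNA or of all RNA. Nor can it be told whether the RNA taken was of the same kind at 0 min as at later times. All samples are of 1 cell line, so the results hold for that line only. Numbers 1 and 2 are names of cultures and do not link cultures of different times.

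Immediate-early genes are transcribed within minutes of a stimulus, without a need for new protein, and their mRNAs are short-lived. In the best known route, growth factors or stress activate the RAS-ERK kinases, which switch on the ternary complex factors that sit with the serum response factor, SRF, at a promoter element called the CArG box. Calcium and cyclic AMP act through the factor CREB, which binds the cyclic AMP response element, CRE. The EGR proteins are zinc-finger transcription factors, the NR4A proteins are orphan nuclear receptors whose activity is set mainly by how much of them is made, IER2 and IER5 are related nuclear proteins, and IER3 is an unrelated regulator of cell survival.

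The 8 cultures held 776871 to 1396056 counts each. Levels are given as CPM, counts relative to the total of the culture, after TMM scaling, which puts the bulk of genes of all cultures on 1 scale. The libraries of each of the 16 cDNA preparations were closer to each other than counting noise alone would make them (chi-square over its degrees of freedom 0.327 to 0.594), so libraries were summed and the culture was counted as the sample, n = 2 per time. Counting intervals below cover counting error only and, for the same reason, are narrower than they should be. Of the markers known in HEK293, VIM stood at 212 to 500 CPM, NEFM at 1.84 to 15.7, KRT8 at 4.30 to 32.4 and KRT18 at 3.42 to 24.2, whereas PAX2 had 0 to 2 counts per culture. The summed level of 8 markers of blood, liver and connective tissue was 0.615 to 4.83 CPM per culture, and PTPRC, CD3E, HBB and ALB were at 0 in all 8 cultures. Against 0 min a large part of all genes differed: at 5 min 28.7% of those tested were called higher and 26.0% lower. At 15 against 5 min these shares were 1.03% and 0.517%. Whether folds against 0 min are changes of level or of the kind of RNA taken cannot be told apart. Scaling moved those comparisons: for 30 against 0 min the median log2 fold change of all 10439 genes tested was 0.35 with TMM scaling, 0.18 with RLE factors and 1.22 with total counts alone, and genes called higher and lower were 3352 and 2485, 2909 and 2761, and 5622 and 1331.

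The promoters are shown first, because CArG boxes and CREs are the elements through which these genes are known to be switched on. RefSeq promoter windows (GRCh38.p14, 250 bases before to 50 after a transcript start) were on hand for 6 of the 9 genes, and 4 windows follow, 5′ to 3′ on the gene's own strand. Capitals mark a CArG box or the core of the CRE, TGACG, in either direction.
EGR1, chr5:138465229-138465528, plus strand: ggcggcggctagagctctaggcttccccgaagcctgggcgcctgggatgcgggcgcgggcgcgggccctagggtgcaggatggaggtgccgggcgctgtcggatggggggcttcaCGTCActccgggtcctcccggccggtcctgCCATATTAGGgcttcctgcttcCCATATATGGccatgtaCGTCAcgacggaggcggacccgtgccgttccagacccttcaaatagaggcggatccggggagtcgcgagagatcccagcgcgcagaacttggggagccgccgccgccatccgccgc
EGR2, chr10:62816317-62816616, minus strand: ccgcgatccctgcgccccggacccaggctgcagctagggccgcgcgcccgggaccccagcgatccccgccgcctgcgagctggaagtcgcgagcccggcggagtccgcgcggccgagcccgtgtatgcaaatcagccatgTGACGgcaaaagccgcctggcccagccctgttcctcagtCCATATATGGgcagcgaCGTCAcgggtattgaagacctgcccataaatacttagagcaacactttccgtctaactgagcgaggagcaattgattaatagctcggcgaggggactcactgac
NR4A3, chr9:99821635-99821934, plus strand: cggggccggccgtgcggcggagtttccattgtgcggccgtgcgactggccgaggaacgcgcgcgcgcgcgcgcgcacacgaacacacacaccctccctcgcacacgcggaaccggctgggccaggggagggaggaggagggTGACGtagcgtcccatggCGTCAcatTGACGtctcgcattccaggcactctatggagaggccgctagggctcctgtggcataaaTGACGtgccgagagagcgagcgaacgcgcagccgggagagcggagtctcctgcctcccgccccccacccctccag
IER2, chr19:13150161-13150460, plus strand: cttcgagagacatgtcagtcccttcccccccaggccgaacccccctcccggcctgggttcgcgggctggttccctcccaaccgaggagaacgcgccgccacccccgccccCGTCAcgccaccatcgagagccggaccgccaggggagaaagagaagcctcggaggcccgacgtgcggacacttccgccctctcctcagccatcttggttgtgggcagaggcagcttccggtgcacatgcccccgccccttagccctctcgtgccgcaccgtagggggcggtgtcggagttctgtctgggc
In positions counted from the annotated start, the EGR1 window held 2 CArG boxes, at -105 to -96 and -83 to -74. The EGR2 window shown, the last of 3 for that gene, held 1, at -71 to -62. CArG boxes were found in 1.29% of all 35114 promoter windows of the same length. The TGACG core stood 2 times in the EGR1 window, 2 times in the EGR2 window, 4 times in the NR4A3 window and 1 time in the IER2 window, and 24.6% of all windows held it. It is part of the full CRE, TGACGTCA, which no member window held and 1.85% of all windows did. The windows of NR4A1 (2) and IER5 (1), and the other 2 windows of EGR2, held neither the CArG box nor the TGACG core. Both strands were searched. A match describes letters in a window and does not show binding, and no match says only that the letters are not in that window. EGR3, NR4A2 and IER3 had no entry.

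All 9 genes stood higher at 30 min than at any earlier time in both cultures. Both 30 min cultures lay above both 15 min cultures for 9 of 9, against 18.2% of the 18789 genes with any count. Both 15 min cultures lay above both 5 min cultures for 8 of 9, the exception being NR4A3, against 17.8% of those genes. Summed by family, the EGR genes stood at 17.5 ± 14.5, 1.65 ± 0.664, 102 ± 11.9 and 319.7 ± 100.8 CPM (SD, n = 2) at 0, 5, 15 and 30 min. The NR4A genes stood at 9.87 ± 12.3, 5.54 ± 1.16, 27.7 ± 7.21 and 223 ± 45.3 CPM at the same times. The IER genes stood at 31.3 ± 16.9, 21.2 ± 10.04, 96.6 ± 5.09 and 258 ± 81.7 CPM. All 3 sums were higher at 15 than at 5 min and higher again at 30 min, and these sums were not tested.

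**Figure D1:**
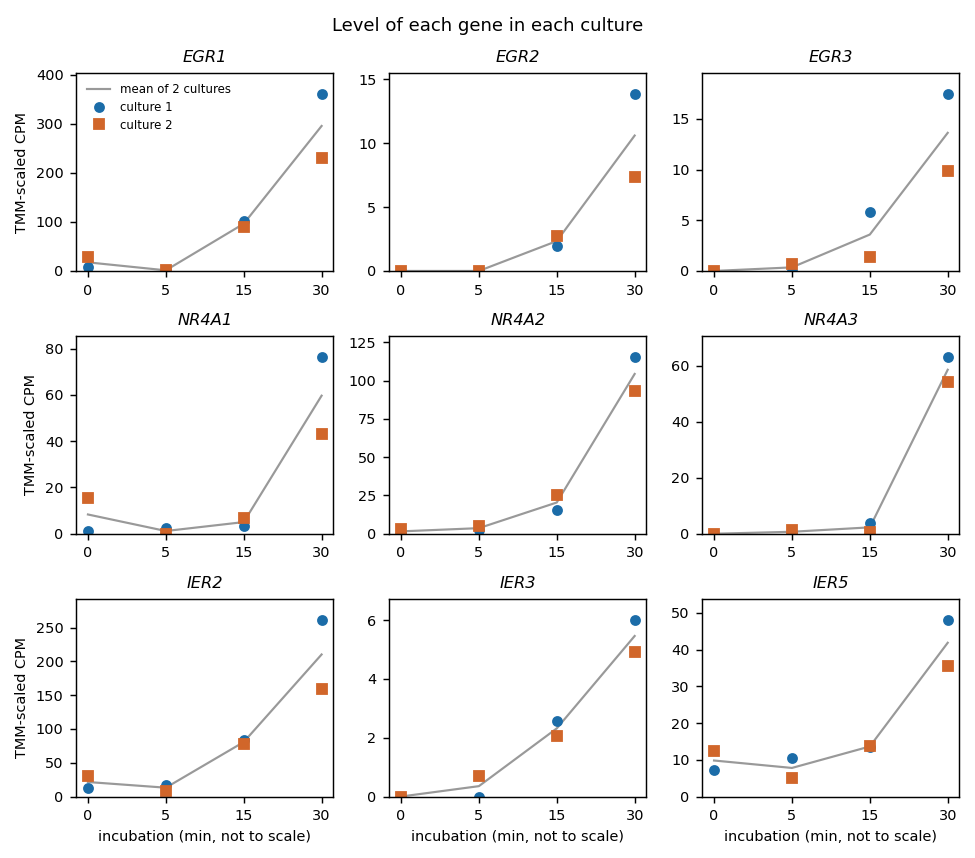
Each panel plots 1 gene: TMM-scaled CPM (vertical axis, starting at 0, with its own range in each panel) at 0, 5, 15 and 30 min (horizontal axis, evenly spaced and not to scale). Circles are culture 1, squares culture 2 and the grey line joins the means of 2 cultures. All 9 genes are highest at 30 min, and at 30 min culture 1 lies above culture 2 in all 9 panels.

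EGR1, a zinc-finger activator of growth and stress genes, stood at 7.25 and 27.8 CPM in cultures 1 and 2 at 0 min, 1.18 and 1.41 at 5 min, 103 and 89.6 at 15 min, and 359.7 and 231 at 30 min. The 5 min cultures were the lowest, the 0 min cultures lay apart from each other, and neither the 15 nor the 30 min cultures overlapped with any earlier time. From 5 to 15 min its counts went from 3 to 290 over both cultures, a ratio of 72.7 (95% counting interval 24.6 to 354.5), and the rise passed the test (log2 fold change 6.08, SE 0.52, adjusted p = 5.83e-10 by edgeR's quasi-likelihood test). From 15 to 30 min EGR1 rose a further 3.07-fold (log2 fold change 1.62, SE 0.23, adjusted p = 3.41e-05). The level at 15 min was 32.6% of that at 30 min. At 0 and 5 min EGR1 reached the low-count filter, given below, only in culture 2 at 0 min. It was thus tested by way of later cultures, and its call at 15 against 5 min supports nothing.

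EGR2, a zinc-finger factor best known from hindbrain and peripheral myelin development, had 0 counts in all 4 cultures at 0 and 5 min. At 15 min it had 3 counts in culture 1 and 4 in culture 2 (1.94 and 2.74 CPM), and at 30 min 23 and 12 (13.8 and 7.38 CPM). All counts of EGR2 thus came from 15 and 30 min, and these times did not overlap. Against 3 counts over both cultures, the most that a count of 0 leaves likely, its 30 min level was at least 8.02-fold higher than at 5 min. The ratio of 30 to 15 min was 4.57 (counting interval 2.00 to 12.2), and it did not pass the test (log2 fold change 2.14, SE 0.93, adjusted p = 0.23).

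EGR3, a close relative known in muscle spindles and lymphocytes, had 0 counts in both cultures at 0 min, 0 and 1 at 5 min, 9 and 2 at 15 min, and 29 and 16 at 30 min. In CPM it stood at 0 and 0.707 at 5 min, 5.82 and 1.37 at 15 min, and 17.4 and 9.84 at 30 min. The cultures of 15 min lay well apart from each other, and neither overlapped with 5 or 30 min. The step from 15 to 30 min had a ratio of 3.74 (counting interval 1.90 to 8.02) and did not pass the test (adjusted p = 0.241).

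NR4A1, an orphan nuclear receptor known in T-cell selection and in metabolism, stood at 1.21 and 15.4 CPM at 0 min, 2.36 and 0 at 5 min, 3.23 and 6.84 at 15 min, and 76.3 and 43.0 at 30 min. The 0 min cultures spanned the whole range of the 5 and 15 min cultures except for the culture at 0, and only the 30 min cultures stood clear. Its counts then went from 15 at 15 min to 197 at 30 min over both cultures, a 12.0-fold rise (counting interval 7.10 to 21.9; log2 fold change 3.55, SE 0.56, adjusted p = 0.000125; 4.19 without culture 2 at 15 min). DESeq2 gave nearly the same fold (log2 3.49) without a call (adjusted p = 0.14). NR4A1 reached the low-count filter, given below, in only 1 culture before 30 min. It had to be high at 30 min to be tested at all, so the edgeR call supports nothing. From 5 to 15 min the log2 fold change was 2.35 and did not pass (adjusted p = 0.347). The gene overlaps its antisense NR4A1AS in RefSeq, and reads of the pair cannot be told apart, since neither the labels nor the table used here say which strand was counted.

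NR4A2, the relative needed for dopamine neurons, stood at 0 and 3.09 CPM at 0 min, 2.36 and 4.95 at 5 min, 15.5 and 25.3 at 15 min, and 115 and 93.4 at 30 min. The 0 and 5 min cultures overlapped, and the 15 and 30 min cultures each lay above all earlier ones. NR4A2 reached the low-count filter, given below, in no culture at 0 or 5 min. It was thus tested by way of later cultures, and its call at 15 against 5 min supports nothing. It rose in both steps: by a log2 fold change of 2.34 (SE 0.53, adjusted p = 0.0149) from 5 to 15 min and of 2.35 (SE 0.33, adjusted p = 3.41e-05) from 15 to 30 min. The earlier step rests on 9 counts at 5 min and lost its call without culture 1 at 5 min (adjusted p = 0.149), without culture 2 at 5 min (0.0549) or without culture 2 at 15 min (0.245).

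NR4A3, the member of the family fused to other genes in a soft-tissue sarcoma, had 0 counts at 0 min in both cultures, 0 and 2 at 5 min, 6 and 1 at 15 min, and 105 and 88 at 30 min. In CPM these were 0 and 1.41 at 5 min, 3.88 and 0.684 at 15 min, and 63.1 and 54.1 at 30 min. The 5 and 15 min cultures overlapped, so that this gene alone of the 9 gave no separation in that step. By 30 min it rose 25.2-fold over its 15 min level (counting interval 12.0 to 63.5; log2 fold change 4.60, SE 0.58, adjusted p = 8.27e-06). NR4A3 reached the low-count filter, given below, in no culture before 30 min. It had to be high at 30 min to be tested at all, so that call supports nothing. The value rests on 7 counts at 15 min and ran from 3.91 without culture 2 at 15 min to 6.22 without culture 1 at 15 min. At 15 min NR4A3 stood at 3.89% of its 30 min level, NR4A1 at 8.44% and NR4A2 at 19.6%.

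**Figure D2:**
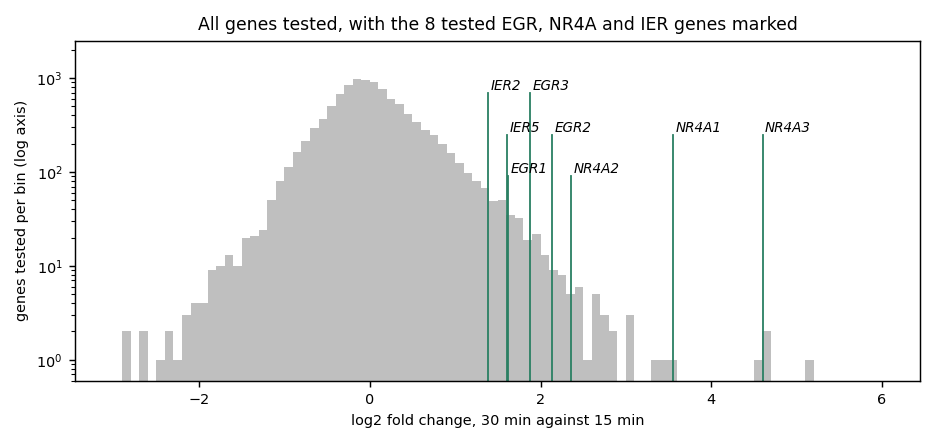
The histogram counts genes tested (log axis) by log2 fold change of 30 against 15 min in bins of 0.1, and the vertical lines mark the 8 tested EGR, NR4A and IER genes at heights that carry no value. NR4A3 (4.60) and NR4A1 (3.55) lie at the far right, and the other 6 lie between 1.38 and 2.35. NR4A3, NR4A1, EGR2 and EGR3 had to be high at 30 min to be tested at all.

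IER2, a small nuclear protein induced by serum in many cells, stood at 12.1 and 30.9 CPM at 0 min, 17.7 and 8.48 at 5 min, 84.0 and 77.3 at 15 min, and 261 and 159 at 30 min. The 0 and 5 min cultures overlapped, and the 15 and 30 min cultures did not overlap with any other time. It rose in both steps: by a log2 fold change of 2.72 (SE 0.36, adjusted p = 4.89e-06) from 5 to 15 min and of 1.38 (SE 0.25, adjusted p = 0.000623) from 15 to 30 min. Without culture 1 at 30 min the later step was 0.98 and lost its call (adjusted p = 0.127).

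IER5, known as a partner of heat shock factor 1 and of the phosphatase PP2A, stood at 7.25 and 12.4 CPM at 0 min, 10.6 and 4.95 at 5 min, 13.6 and 13.7 at 15 min, and 48.0 and 35.7 at 30 min. Its 0 and 5 min cultures overlapped, its 15 min cultures lay just above them, and its 30 min cultures stood clear. IER5 rose 3.08-fold from 15 to 30 min (log2 fold change 1.61, SE 0.43, adjusted p = 0.0187). That call was lost without either 15 min culture (adjusted p = 0.129 and 0.186), without culture 1 at 30 min (0.359), without culture 2 at 30 min (0.0769) and by DESeq2 (0.107). At 30 min the cDNA preparations of culture 2 gave 14 and 44 counts of IER5, or 22.8 and 60.4 CPM of total counts, and those of culture 1 gave 51.1 and 63.6.

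IER3, a regulator of cell survival and of ERK signalling, had 0 counts in both cultures at 0 min, 0 and 1 at 5 min, 4 and 3 at 15 min, and 10 and 8 at 30 min (6.01 and 4.92 CPM). Its order over time was that of the other genes, at the lowest counts of the 9. IER3 did not pass the filter on low counts and was not tested in the main fit. Without the filter, edgeR called it higher at 30 against 0 min (log2 fold change 5.84, SE 2.40, adjusted p = 0.0477), from 0 counts. It made no call at 30 against 15 min (1.23, SE 1.24, adjusted p = 0.903). Against 3 counts over both 0 min cultures its 30 min level was at least 2.69-fold higher. It overlaps the antisense gene IER3-AS1, and EGR3 overlaps LOC107986924, with the same limit as for NR4A1.

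Read together over the 9 genes, 3 were called higher at 15 than at 5 min (EGR1, NR4A2 and IER2), where 1.03% of all genes tested were. From 15 to 30 min 6 were called higher (EGR1, NR4A1, NR4A2, NR4A3, IER2 and IER5), where 2.26% of all genes were. At 30 against 5 min 8 were called higher, where 5.88% of all genes were. The filter asked for 7.58 CPM (of total counts, before TMM scaling) in 2 cultures. Before 30 min EGR2, EGR3 and NR4A3 reached it in no culture and NR4A1 in 1, so these 4 had to be high at 30 min to be tested at all, and their calls at 30 min, including the rises given above for NR4A1 and NR4A3, support nothing. EGR1, NR4A2, IER2 and IER5 passed without their 30 min cultures, in 3, 2, 6 and 4 of the 6 earlier ones, and all 4 were called higher at 30 than at 15 min. At 0 and 5 min NR4A2 reached the filter in no culture and EGR1 only in culture 2 at 0 min. Both were thus tested only by way of 15 or 30 min cultures, and their calls at 15 and 30 min against 5 min support nothing. Scaling moved the balance of all genes in that step (236 higher and 290 lower with TMM, 198 and 391 with RLE factors, 315 and 202 with total counts), and 6 members were called higher under each. At 30 against 5 min the calls of EGR2 and EGR3 were lost without either 5 min culture (EGR2 adjusted p = 0.0555 and 0.111, EGR3 0.0733 and 0.0609) or without culture 1 at 30 min (0.162 and 0.185). DESeq2 also made no call for EGR3 (0.0514). The comparisons share cultures (15 min in both steps), so their counts are not independent.

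**Figure D3:**
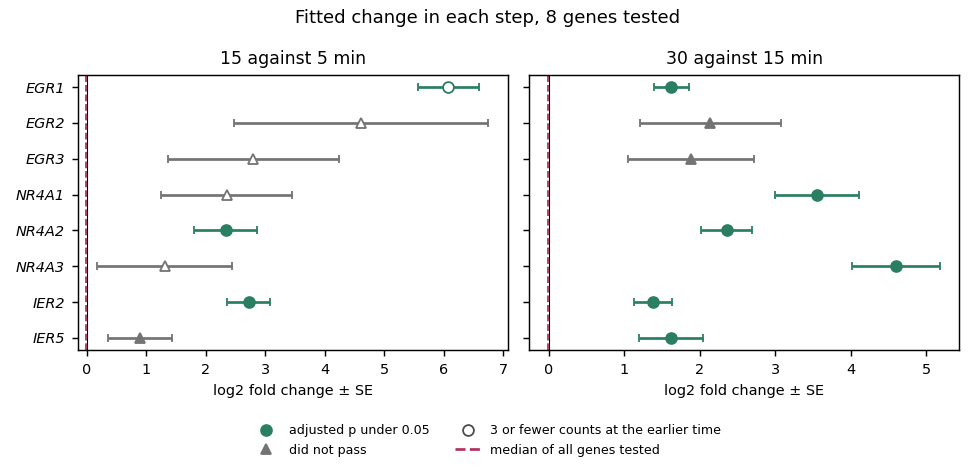
Points are fitted log2 fold changes and bars are ± 1 SE for the 8 tested genes (rows), 15 against 5 min on the left and 30 against 15 min on the right, each with its own horizontal range. Green circles passed the test and grey triangles did not, open symbols mark 3 or fewer counts at the earlier time, whose fitted values depend on the prior count, and the dashed line is the median of all genes tested (-0.003 and -0.014). EGR1 has the largest value on the left (6.08) and NR4A3 on the right (4.60). EGR2, EGR3, NR4A1 and NR4A3 had to be high at 30 min to be tested, and EGR1 and NR4A2 high at 15 or 30 min.

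The difference between the 2 steps was itself tested. For EGR1 the later step was smaller than the earlier one by 4.46 on the log2 scale (SE 0.73, adjusted p = 0.000819), and 0.182% of all genes tested were called in that direction. It was the only member called. The IER2 difference was -1.34 (SE 0.53, adjusted p = 0.354) and the NR4A3 difference 3.29 (SE 1.86, adjusted p = 0.553), so the later gain of NR4A3 was not shown to differ from its earlier step. The EGR1 value rests on the 3 counts at 5 min.

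A ratio to EGR1 within the same culture does not depend on scaling. Per 100 counts of EGR1, NR4A3 had 3.77 and 0.763 counts in cultures 1 and 2 at 15 min and 17.5 and 23.4 at 30 min. NR4A1 had 3.14 and 7.63 at 15 min and 21.2 and 18.6 at 30 min. NR4A2 had 15.1 and 28.2 at 15 min and 32.1 and 40.4 at 30 min. For all 3 NR4A genes both values at 30 min lay above both at 15 min, with NR4A3 resting on 7 counts at 15 min and NR4A1 on 15. IER2 went the other way, with 81.8 and 86.3 at 15 min and 72.6 and 68.9 at 30 min. IER5 kept its place, with 13.2 and 15.3 at 15 min and 13.4 and 15.4 at 30 min. The 15.4 pools cDNA preparations that were far apart, with 14 and 44 counts of IER5 beside 155 and 221 of EGR1. For EGR2 too both values at 30 min lay above both at 15 min (1.89 and 3.05, then 3.84 and 3.19), so this was not confined to the NR4A genes. Like NR4A3, EGR2 rested on 7 counts at 15 min. EGR3 (5.66 and 1.53, then 4.84 and 4.26) and IER3 (2.52 and 2.29, then 1.67 and 2.13) were as thinly counted at that time. These ratios were not tested.

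**Figure D4:**
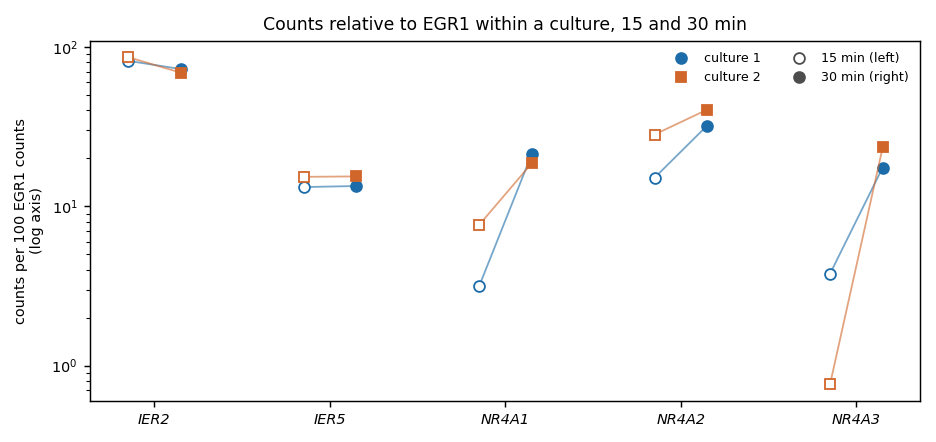
For 5 genes (horizontal axis), the counts per 100 counts of EGR1 in the same culture (log axis) are joined from 15 min (open) to 30 min (filled), with circles for culture 1 and squares for culture 2. The lines of NR4A1, NR4A2 and NR4A3 climb in both cultures, those of IER2 descend, and those of IER5 are level (13.2 to 13.4 and 15.3 to 15.4). The IER5 value of 15.4 pools cDNA preparations with 14 and 44 counts.

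Against 0 min, 8 of the 9 genes were called higher at 30 min, where 32.1% of all genes tested were. Among these, EGR2, EGR3, NR4A3 and NR4A1 had to be high at 30 min to be tested at all. Their calls here support nothing, and only those of EGR1, NR4A2, IER2 and IER5 are free of this limit. These comparisons share the 0 min cultures. EGR1 was 18.2-fold higher (counting interval 12.2 to 28.6; log2 fold change 4.16, SE 0.33, adjusted p = 1.55e-12) and IER2 10.4-fold (log2 fold change 3.35, SE 0.34, adjusted p = 2.1e-10). NR4A2, from 2 counts, had a ratio of 77.1 (21.2 to 638.9; adjusted p = 1.18e-10). NR4A1 was 8.02-fold higher (log2 fold change 2.95, SE 0.60, adjusted p = 8.19e-05), without a call by DESeq2 (adjusted p = 0.0843), and IER5 4.42-fold (log2 fold change 2.12, SE 0.50, adjusted p = 0.00056). NR4A3 was at least 28.8-fold, EGR3 at least 6.72-fold and EGR2 at least 5.23-fold higher than 3 counts over both 0 min cultures, and the EGR2 call was lost without culture 1 at 30 min (adjusted p = 0.0615). The 0 min cultures set much of the size: without culture 1 and without culture 2 at 0 min the log2 fold change was 3.43 and 5.35 for EGR1, and 1.97 and 5.54 for NR4A1. NR4A2 was at 5.06 without culture 1 at 0 min, and without culture 2 its 0 min count is 0. IER2 was at 4.13 without culture 2 at 0 min. Each of these was called.

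At 15 against 0 min 3 genes were called higher, EGR1, NR4A2 and IER2, where 29.8% of all genes were. For EGR1 and NR4A2, tested only by way of 15 or 30 min cultures, this call supports nothing. EGR1 was 5.92-fold higher (log2 fold change 2.54, SE 0.36, adjusted p = 2.76e-07), IER2 3.97-fold (log2 fold change 1.97, SE 0.36, adjusted p = 1.86e-05), and NR4A2, from 2 counts, had a ratio of 15.0 (3.96 to 126.2; adjusted p = 6.21e-05). EGR3 (adjusted p = 0.0537), NR4A3 (0.0693) and EGR2 (0.119) did not pass, and neither did NR4A1 (log2 fold change -0.60, adjusted p = 0.535) or IER5 (0.50, adjusted p = 0.461).

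At 5 against 0 min none of the 9 genes was called higher, where 28.7% of all genes were, and 2 were called lower, EGR1 and NR4A1, where 26.0% of all genes were. The edgeR test gave 0 of them higher at an unadjusted p under 0.05, and DESeq2 0. EGR1 had a ratio of 0.0815 (counting interval 0.0157 to 0.268; adjusted p = 0.000224), from 24 counts at 0 min to 3 at 5 min. NR4A1 had a ratio of 0.119 (0.0128 to 0.543; adjusted p = 0.0265), from 11 counts to 2. IER2 (log2 fold change -0.76, adjusted p = 0.19) and IER5 (-0.39, adjusted p = 0.626) did not pass, NR4A2 had a ratio of 2.93 (adjusted p = 0.248), and EGR2, EGR3, NR4A3 and IER3 had too few counts for a fold.

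The 0 min values of these genes were uneven between cDNA preparations. The second preparation of culture 2 gave 15 of the 24 EGR1 counts, 7 of the 11 of NR4A1, 2 of the 2 of NR4A2 and 14 of the 30 of IER2, and both its libraries shared in this (7 and 8 counts of EGR1). The first preparation of the same culture gave 3, 3, 0 and 6 counts, close to those of culture 1 (3 and 3 for EGR1). IER5 did not follow, with 6 and 0 counts in culture 1 and 4 and 4 in culture 2. With culture 2 at 0 min taken from its first preparation alone, EGR1 kept its call at 5 against 0 min (log2 fold change -2.42, adjusted p = 0.0239), NR4A1 lost it (-1.83, adjusted p = 0.268), and NR4A2 was called higher (adjusted p = 0.0293). Without culture 2 at 0 min neither EGR1 (-2.35, adjusted p = 0.0508) nor NR4A1 (-0.37, adjusted p = 0.883) was called, and NR4A2 was called higher (adjusted p = 0.0482). Without culture 1 at 0 min IER2 was called lower (-1.32, adjusted p = 0.0339). The NR4A1 call was also lost without culture 2 at 5 min (-1.63, adjusted p = 0.267), with total counts only (-2.23, adjusted p = 0.0833), with 1 library per cDNA preparation (-2.70, adjusted p = 0.0851) and by DESeq2 (adjusted p = 0.11), and without culture 1 at 5 min, which leaves a culture with 0 counts, the fitted value was -6.32 (adjusted p = 0.0059). What set the second preparation apart was not tested. For 15 against 0 min the EGR1 log2 fold change ran from 1.82 without culture 1 at 0 min to 3.74 without culture 2 at 0 min, with a call in each. The IER2 value was 2.76 without culture 2 at 0 min and the NR4A2 value 2.71 without culture 1 at 0 min, both called.

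**Figure D5:**
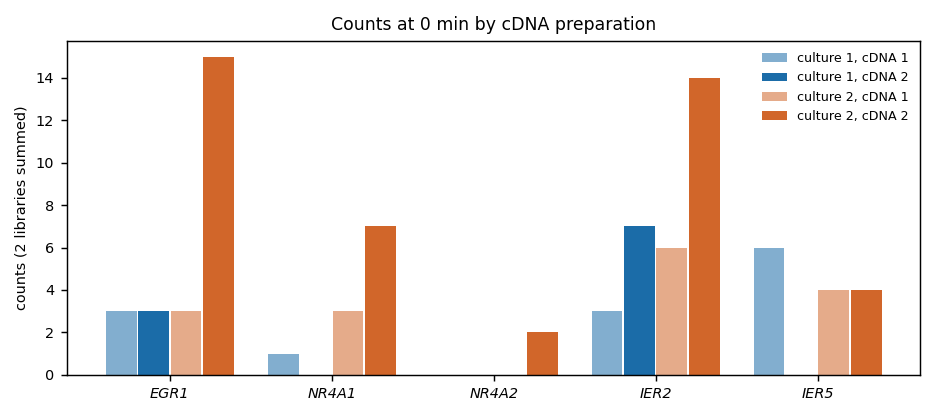
Bars, starting at 0, give the counts of 5 genes at 0 min in each of the 4 cDNA preparations (2 libraries summed), blue for culture 1 and orange for culture 2. The darker orange bars, the second preparation of culture 2, are the tallest for EGR1 (15), NR4A1 (7), NR4A2 (2) and IER2 (14), and not for IER5 (4).

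The cultures also differed in step at 30 min. All 9 genes were higher in culture 1 than in culture 2, by 1.17-fold for NR4A3 to 1.87-fold for EGR2, with EGR1 at 1.56, NR4A1 at 1.77, IER2 at 1.64, IER5 at 1.35, NR4A2 at 1.23 and IER3 at 1.22. For IER3 these were 10 and 8 counts, and for NR4A3 105 and 88. Over all genes tested, 51.6% were higher in culture 1. The lean was not confined to the 9 genes. Most of the 42 other immediate-early genes tested had it too, such as FOS (665 and 545 CPM in cultures 1 and 2) and HES1 (1132 and 834). Those higher in culture 2 were ID2 (1515 and 1882), DUSP4, DUSP6, KLF6, KLF10, MAFK, HBEGF and PLAUR. The examples with values were picked with the data already known. The cDNA preparations of a culture were close for EGR1, at 427 and 431 CPM of total counts in culture 1 and 252 and 303 in culture 2. For IER5 those of culture 2 were not, at 22.8 and 60.4. At 15 min 5 of the 9 were higher in culture 1 and 4 in culture 2. At 0 min the 5 genes with any count were all higher in culture 2. With 2 cultures per time these differences were not tested.

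Of 25 genes for the kinases and adaptors of the RAS-ERK route, 22 were tested. None was called higher or lower from 5 to 15 min (median log2 fold change -0.32, all genes -0.003) or from 15 to 30 min (0.02, all genes -0.014). Of all genes 1.03% were called higher and 0.517% lower in the earlier step, and 2.26% and 2.78% in the later. At such shares few calls or none would be looked for in this list or the next 2. At an unadjusted p under 0.05 edgeR counted 3 and 1 of them in these steps, and DESeq2 called 0 in each. Against 0 min 12 were higher and 2 lower at 5 min (28.7% and 26.0% of all genes), and 10 higher and 3 lower at 30 min (32.1% and 23.8% of all genes). The lower ones, named after their values were seen, were NRAS and ARAF at both times (-1.78 and -1.51 at 5 min) and HRAS at 30 min (-2.04, adjusted p = 0.0413). The kinase BRAF, named for its abundance, had a log2 fold change of 3.10 (SE 0.24, adjusted p = 2.23e-12) at 5 against 0 min and -0.15 (adjusted p = 0.765) at 30 against 15 min.

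Of 18 genes for SRF, the ternary complex factors, CREB and their partners, 17 were tested. From 5 to 15 min none was called (3 at an unadjusted p under 0.05 by edgeR, 0 by DESeq2; median -0.30). Of all genes 1.03% were called higher in that step and 0.517% lower. From 15 to 30 min 1 was called higher and none lower (median 0.25), where 2.26% and 2.78% of all genes were. It was SRF itself, named here after its values were seen, at 10.3 and 17.8 CPM at 15 min and 52.3 and 47.3 at 30 min (log2 fold change 1.82, SE 0.43, adjusted p = 0.00745). At 5 against 0 min 12 of the 17 were higher (28.7% of all genes). At 30 against 5 min 5.88% of all genes were higher and 6.52% lower, and of the 17 genes 1 was higher (SRF) and 2 lower (MKL2 and, named after its values were seen, CREB1 at -0.87, adjusted p = 0.00829). The most abundant were the coactivators CREBBP and MKL2. CREBBP stood at -0.06 (adjusted p = 0.933) for 30 against 15 min and MKL2 at -0.35 (adjusted p = 0.388), and at 30 against 5 min MKL2 fell by 0.65 on the log2 scale (SE 0.19, adjusted p = 0.0227).

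Of 17 cofactors and relatives of the EGR, NR4A and IER proteins, 12 were tested, and none was called in either step (3 and 0 at an unadjusted p under 0.05 by edgeR, 0 and 0 by DESeq2; medians -0.31 and 0.08). Of all genes 1.03% and 2.26% were called higher in the steps, and 0.517% and 2.78% lower. At 5 against 0 min 6 were higher and none lower (28.7% and 26.0% of all genes). The most abundant were NCOA2, a nuclear receptor coactivator, at -0.27 (adjusted p = 0.53) and -0.14 (adjusted p = 0.784) in the steps, and PPP2R2A, a regulatory subunit of PP2A, at -0.47 (adjusted p = 0.253) and 0.14 (adjusted p = 0.798).

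Of 59 other immediate-early genes, 42 were tested. From 5 to 15 min 19 were higher and none lower (1.03% and 0.517% of all genes), and from 15 to 30 min 24 were higher and none lower (2.26% and 2.78% of all genes), with a median log2 fold change of 1.28 in the later step (all genes -0.014). At 30 against 0 min 37 were higher and none lower (32.1% and 23.8% of all genes). At 5 against 0 min 5 were higher and 7 lower (28.7% and 26.0% of all genes), the 5 being KLF6, CCNL1, BHLHE40, DUSP1 and TRIB1, named after their values were seen (1.14 to 1.67). The 7, named in the same way, were FOS, SGK1, GADD45B, CYR61, ID3, PLAUR and RHOB (-2.72 to -0.61). The most abundant were the transcriptional repressors ID2 and HES1. HES1 rose by a log2 fold change of 1.45 (SE 0.20, adjusted p = 6.65e-06) from 5 to 15 min and stood at 0.42 (adjusted p = 0.234) in the later step. ID2 rose by 1.26 (SE 0.18, adjusted p = 2.92e-05) and stood at 0.36 (adjusted p = 0.309). Of the 42, 9 needed a 30 min culture to pass the filter, so the counts at 30 min are a description.

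Among 8653 other genes with a mean of at least 10 CPM, those whose log2 level followed the most abundant member of each family most closely over the 8 cultures were as follows. For EGR1 they were FOS (Pearson's r = 0.987), CYR61 (0.983) and SAT1 (0.977). FOS, a subunit of AP-1, stood at 15.8, 1.77, 165 and 605 CPM at 0, 5, 15 and 30 min, with the same low point at 5 min as EGR1. For NR4A2 they were ATF3 (0.980), BMP2 (0.976) and CTGF (0.975), of which CTGF stood at 1.54, 3.53, 26.7 and 107 CPM. For IER2 they were HES1 (0.987), ANKRD1 (0.977) and RHOB (0.975), of which RHOB stood at 75.9, 50.9, 179 and 348 CPM. The 8 points of each correlation come from the same libraries and from 4 times, so the values are descriptions.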

How the data were processed

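Gene counts of 32 RNA-seq libraries were analysed. The authors deposited whole-number counts per gene entry. The submitters' processing notes name STAR and hg19. The aligner's version, the strand and any molecular identifiers are not given in the sources used here. Counts of the 4 libraries of a culture were summed, and the culture was the replicate. Nothing says how separately cultures were handled, so p-values measure only the spread between these samples.

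Genes kept by filterByExpr (10439) were compared between times with the quasi-likelihood F test of edgeR 4.0.16 (R 4.3.3, two-sided, TMM scaling, 1 fit over 8 cultures, 4 residual degrees of freedom, Benjamini-Hochberg adjustment over all genes tested, threshold 0.05). The biological coefficient of variation was 15.3%. Each SE was worked back from the test, as the absolute log2 fold change over the square root of F. It is not the standard error of a fitted coefficient, so SEs of steps and of their difference need not match. The smallest p of an exact permutation test with 2 cultures against 2 is 0.333, and none was run. DESeq2 1.42.0 was an alternative, beside other scalings, no filter, 1 library per cDNA preparation, a replicate block and leaving out each culture. Where a time had no count, folds use 3 counts over its cultures as the floor. Intervals are exact at 95%. Scripts were tested on simulated data.

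The 9 genes, the gene lists and the alternatives were chosen with earlier results of these data known. All 9 genes are named. In each list the 2 most abundant tested genes are named, except 1 that is not reported here, and for the most abundant gene of each family the 3 genes of most similar pattern. Promoter sequences are from RefSeq and were not aligned to the counts, which use another build.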

Additional observations from a re-analysis of the deposited data

How the results depend on the processing

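Of 710 values of single members under 15 alternatives, 665 kept their direction and their side of the threshold, 26 lost a call, 11 gained one and 8 changed sign. None of the 8 that changed sign was called. Of the 48 member results followed, 31 were called, and 10 of these lost their call in at least 1 alternative. DESeq2 called 4 members higher at 30 against 15 min, where edgeR called 6. Those 6 include NR4A1 and NR4A3, whose calls support nothing. Members called lower at 5 against 0 min were 1 with total counts only, with DESeq2, with 1 library per cDNA preparation, and with culture 2 at 0 min from its first cDNA preparation alone, an alternative chosen after seeing the data, which also gave 1 called higher at 5 min. With total counts only, 6 were called higher at 15 against 0 min, where 46.9% of all genes were. Leaving out 1 culture in turn gave 0 to 1 higher and 0 to 3 lower at 5 min and 3 to 5 higher at 15 min. With total counts only, IER5 at 5 against 0 min was 0.34 and NR4A1 at 15 against 0 min 0.16, and the latter was 0.52 with the first cDNA preparation alone. On leaving out 1 culture, log2 values ran from -0.91 to 0.17 for IER5 and -1.32 to 0.028 for IER2 at 5 against 0 min, from -1.58 to 1.99 for NR4A1 at 15 against 0 min, and from -0.31 to 4.58 for NR4A3 at 15 against 5 min. The cause was not tested. Culture numbers did not pair the cultures (correlations of deviations -0.031 to 0.077), and the fit with the replicate block kept 6 members higher at 30 against 15 min and each other count. Depth limits EGR2, EGR3, IER3 and NR4A3 before 30 min, where each had at most 11 counts per time.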
